A study of Perna viridis with 2 samples.

Results

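Tyrosinases are copper enzymes that oxidise tyrosine to DOPA and on to quinones, which can cross-link proteins. In bivalves they are known from the hardening and browning of the periostracum, the organic skin of the shell, and from pigmentation and immune defence. The family was examined in mantle of the green mussel Perna viridis as 9 assembled genes of the 78458 listed, chosen as entries whose product name is tyrosinase, tyrosinase-like or the symbol TYR. Another entry, TRINITY_DN30530_c0_g1, also carries the symbol TYR but is not among the 9. Its level was 0.603 TPM in the groove against 0.0933 TPM in the submarginal zone, and its effect on the family sum is given with the sum.

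Bulk RNA was profiled from 2 regions of the mantle of untreated wild mussels with shells of 6 to 7 cm. The periostracal groove, where the periostracum is secreted, is the furrow between the outer and the middle fold. The submarginal zone lies further in, between the folds and the pallial line. Per the labels each sample pooled tissue of 6 animals, all cell types included, with genotype given as unknown and no age given. The submitters state 3 biological replicates.

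The deposited values were read as TPM from their sums. TPM adjusts for transcript length and expresses each gene relative to all genes of the region, so that levels of different genes can be set side by side. The sums do not show that length was adjusted for. Without it, shares, ranks and the order of members would also reflect length. There was 1 profile per region. All 18 values of the family were whole multiples of 1/300, the step of a mean of 3 values with 2 decimals, and they are given as the authors' values with no SD, no n and no test. The number of reads behind a TPM value is not recoverable, and the depth is unknown. The value column of each table is headed with the sample name of the groove, so that the header does not tell the regions apart. Each table was assigned by the record that holds it, and an exchange of the tables would turn all directions given here. In bulk tissue, fewer cells of a type and less RNA per cell cannot be told apart.

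Names come from the best database match of each assembled gene. Of the 9 members, 5 matched an entry of the mussel Mytilus coruscus and 4 an entry of Mytilus galloprovincialis, and among all 29900 described genes with values these species gave 34.3% and 32.3% of the matches. By name the members fall into 4 kinds. There were 3 named TYR, 3 named tyrosinase, 2 with the double name Tyrosinase-like protein, Tyrosinase-like protein 2, and 1 tyrosinase-like tyr-3 protein, whose match is marked as partial. Members that share a name may be fragments of 1 gene or close copies that share reads, which the tables do not settle.

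A different member led the family in each region. The sum of the 9 members was 126 TPM in the groove against 84.4 TPM in the submarginal zone, a 1.50-fold difference. In the groove the sum was spread over several members, led by the tyr-3 protein with 45.5%. In the submarginal zone 1 member, TRINITY_DN239_c0_g1, held 81.3% of it. With the unlisted entry added, the sums were 127 and 84.4 TPM. The direction of the sum rested on the tyr-3 protein, since the log2 ratio of the sums was 0.58 with it and -0.21 without it.

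**Figure D1:**
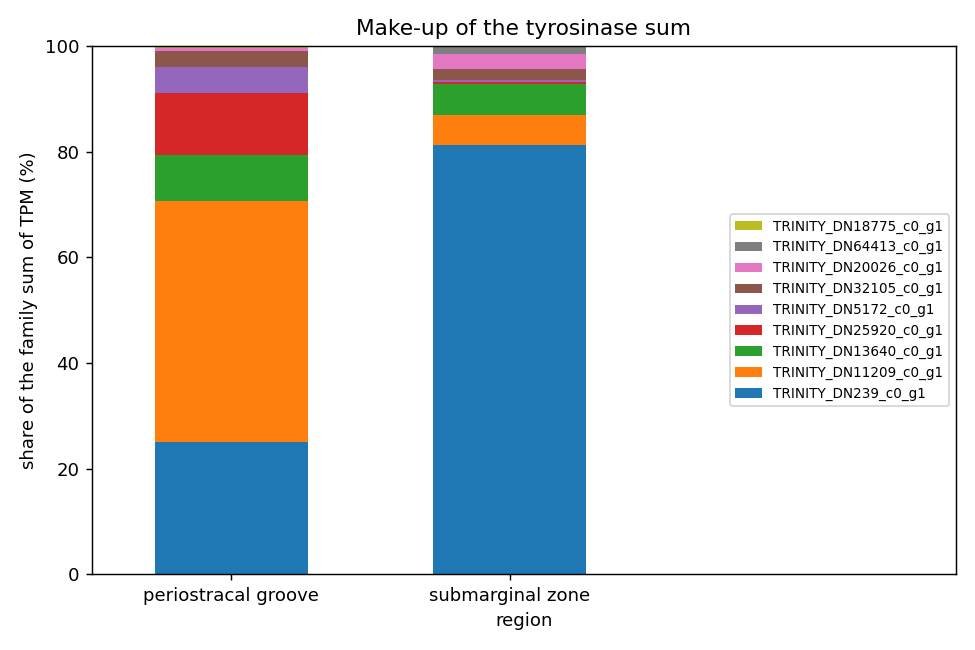
Share of the summed TPM of the 9 tyrosinases held by each member, as stacked bars in percent for the periostracal groove and the submarginal zone. TRINITY_DN239_c0_g1 holds 25.1% of the groove bar and 81.3% of the submarginal bar, and TRINITY_DN11209_c0_g1 holds 45.5% and 5.69%.

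The tyr-3 protein, TRINITY_DN11209_c0_g1, was the most abundant tyrosinase of the groove. It stood at 57.5 TPM there against 4.80 TPM in the submarginal zone, a 12.0-fold difference. Ranked among all genes, it held position 820 in the groove but 9319 in the submarginal zone. Its log2 ratio of groove over submarginal zone was 3.34, computed with 1 TPM added to both values, which shrinks the ratios of low genes. Of the 5800 genes that reached 10 TPM in either region, 5.88% had a ratio that high.

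A TYR gene, TRINITY_DN25920_c0_g1, had the largest log2 ratio of the family with 1 TPM added, while with 5 TPM added its 1.91 was below the 2.67 of the tyr-3 protein. Its level was 14.8 TPM in the groove against 0.283 TPM in the submarginal zone, with a log2 ratio of 3.62. Only 5.14% of the 5800 genes had a ratio that high. It gave 11.7% of the groove sum but 0.336% of the submarginal sum.

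A second gene named TYR, TRINITY_DN13640_c0_g1, was less far apart. The groove value was 11.0 TPM and the submarginal value 4.92 TPM, a 2.24-fold difference with a log2 ratio of 1.02. In the submarginal zone this gene and the tyr-3 protein were the next most abundant tyrosinases after TRINITY_DN239_c0_g1.

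TRINITY_DN239_c0_g1, named tyrosinase, was the only member above 5 TPM in the submarginal zone and the only 1 of the 4 members reaching 10 TPM that was lower in the groove. It had 31.7 TPM in the groove against 68.6 TPM in the submarginal zone, a 2.17-fold difference. In rank it stood at position 1322 in the groove, compared with 834 in the submarginal zone. Its log2 ratio was -1.09, while the median of the 5800 genes was -0.55, so that it lay 0.54 below the median gene, and 24.6% of genes had a ratio as low or lower. The remaining 8 members summed to 94.7 TPM in the groove against 15.8 TPM in the submarginal zone, a 5.99-fold difference.

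**Figure D2:**
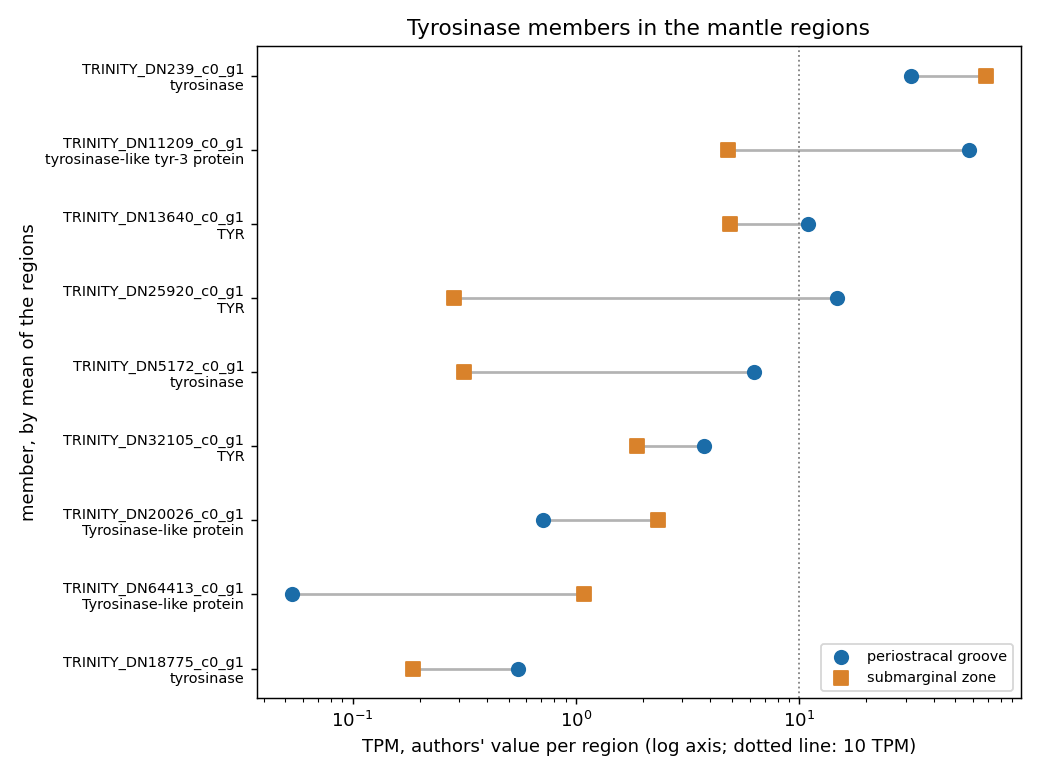
TPM of each tyrosinase in the periostracal groove (circles) and the submarginal zone (squares) on a log axis, with members ordered by the mean of the regions and a dotted line at 10 TPM. Symbols are the authors' values, 1 per region, with no error bars. Circles lie to the right for 6 members and squares for 3, among them TRINITY_DN239_c0_g1 at 68.6 against 31.7 TPM.

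The other 5 members stayed under 10 TPM in both regions and together gave 11.4 TPM in the groove against 5.81 TPM in the submarginal zone. The tyrosinase TRINITY_DN5172_c0_g1 had 6.28 TPM in the groove against 0.317 TPM in the submarginal zone, with a log2 ratio of 2.47. It was thus more than 4-fold apart but below the level asked of a called gene. The remaining TYR gene, TRINITY_DN32105_c0_g1, had 3.76 against 1.87 TPM. The tyrosinase TRINITY_DN18775_c0_g1 was under 1 TPM in both regions, at 0.553 and 0.187 TPM.

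The members with the double name were the other 2 that were higher in the submarginal zone. TRINITY_DN20026_c0_g1 had 0.71 TPM in the groove against 2.34 TPM in the submarginal zone. TRINITY_DN64413_c0_g1 had 0.0533 TPM in the groove, the lowest value of the family, and 1.09 TPM in the submarginal zone. Their log2 ratios of -0.97 and -0.99 are close to each other on the pseudocount scale although the ratios of the values themselves are 3.30-fold and 20.4-fold, because the pseudocount outweighs so low a groove value.

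Grouped by name, the 3 genes named TYR were all higher in the groove, at 29.6 against 7.07 TPM in sum. Both genes with the double name were higher in the submarginal zone, at 3.43 against 0.763 TPM in sum. The 3 named tyrosinase were mixed, with 2 higher in the groove and 1, TRINITY_DN239_c0_g1, higher in the submarginal zone, and their sum of 38.5 against 69.1 TPM followed that gene. These groups are too small for a statement about a name.

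In order of level, the groove ran from the tyr-3 protein through TRINITY_DN239_c0_g1, TRINITY_DN25920_c0_g1 and TRINITY_DN13640_c0_g1 to TRINITY_DN5172_c0_g1 and TRINITY_DN32105_c0_g1, with the last 3 members below 1 TPM. In the submarginal zone TRINITY_DN239_c0_g1 came first, followed by TRINITY_DN13640_c0_g1 at 4.92 TPM and the tyr-3 protein at 4.80 TPM, which are nearly level. With no replicate values, whether neighbours in either order differ beyond their spread is not known.

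A gene was counted as different when its log2 ratio was at least 2 in size, which is 4-fold, and its higher region reached 10 TPM. Of the 4 members reaching 10 TPM, the tyr-3 protein and TRINITY_DN25920_c0_g1 were called higher in the groove, which makes 2, and 0 were called higher in the submarginal zone. Among all 5800 such genes, 9.45% passed in the direction of the groove and 12.4% in the direction of the submarginal zone. The median log2 ratio was 2.18 over the 4 members, the midpoint of 1.02 and 3.34, and -0.55 over the 5800 genes. Without regard to size, 3 of these 4 members were higher in the groove, against 27.6% of the 5800 genes, and 6 of all 9 members were, against 42.4% of the 76629 genes above 0 TPM in either region. The 3 of the 4 members that were higher in the groove reached 10 TPM there alone, so the filter fixed their direction. The counts describe 2 profiles and were not tested.

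**Figure D3:**
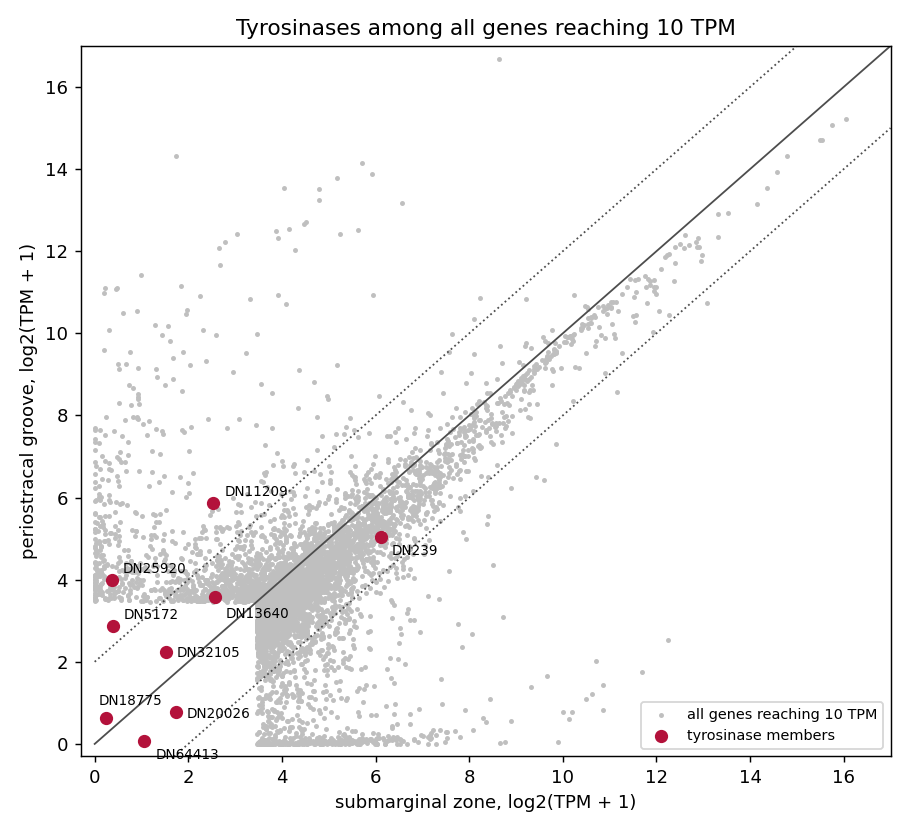
Level in the periostracal groove against level in the submarginal zone, both as log2(TPM + 1), for the 5800 genes reaching 10 TPM in either region (grey) and the 9 tyrosinases (red, labelled by the DN part of their identifier). The solid line marks equal levels and the dotted lines 4-fold. Of the members reaching 10 TPM, the 2 called ones lie above the upper dotted line, and DN239 lies under the line of equal levels within the main body of genes. DN5172, at 6.28 TPM in the groove, also lies above the upper dotted line.

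If each deposited value is the mean of 3 libraries, as its step allows, the values bound what any 1 library can have held. No library can exceed 3 times the mean, and at least 1 library lies at or above it. For the tyr-3 protein no submarginal library could then exceed 14.4 TPM, while at least 1 groove library reached 57.5 TPM. For TRINITY_DN25920_c0_g1 the submarginal limit is 0.85 TPM against a groove mean of 14.8 TPM, and for TRINITY_DN5172_c0_g1 it is 0.95 TPM against 6.28 TPM.

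For TRINITY_DN20026_c0_g1 and TRINITY_DN64413_c0_g1 the bound runs the other way, with groove limits of 2.13 and 0.16 TPM under submarginal means of 2.34 and 1.09 TPM. In the other 4 members the limit of the lower region lies above the mean of the higher one. For TRINITY_DN239_c0_g1 a groove library could have held up to 95.0 TPM, above the submarginal mean of 68.6 TPM. A higher mean beyond the other region's limit was found in 5 of the 9 members and in 41.2% of all 76629 genes above 0 TPM, which is not far from the members' share. The bound says nothing about the other libraries of a region, which could be at 0.

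**Figure D4:**
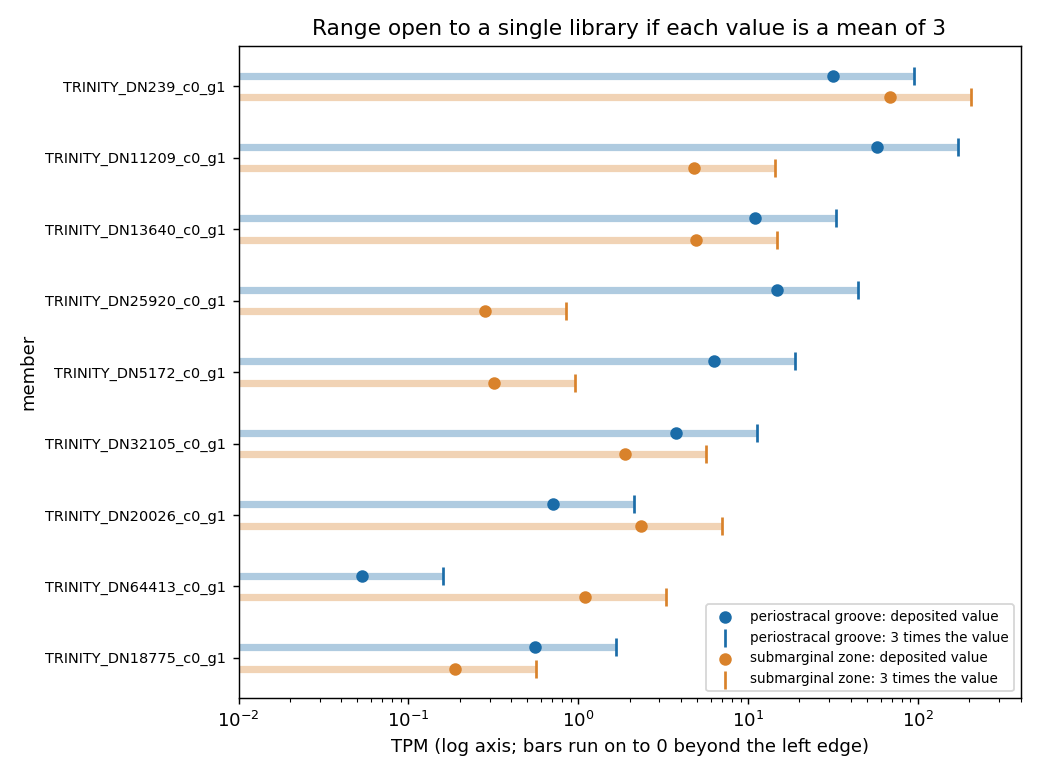
TPM of each tyrosinase on a log axis, with the deposited value as a point and 3 times that value as a tick, for the periostracal groove and the submarginal zone. A bar spans the values open to a single library if the deposited value is a mean of 3. The point of the higher region lies beyond the other region's tick in 5 members, and in TRINITY_DN239_c0_g1 the groove tick at 95.0 TPM passes the submarginal point at 68.6 TPM.

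The enzymes and proteins around tyrosinase were taken from 5 lists of product names. Peroxidases are haem enzymes, some of which can also oxidise tyrosine. Of 26 matched entries 10 reached 10 TPM, all of them in the groove alone, so the filter fixed their direction. Of these 10, 9 were called toward the groove, against 9.45% of the 5800 genes. The 26 entries summed to 460 TPM in the groove against 24.1 TPM in the submarginal zone. In the groove this sum stood above the 126 TPM of the tyrosinases, and in the submarginal zone below their 84.4 TPM. The most abundant was a PXDN gene, TRINITY_DN1036_c0_g1, at 246 against 0.86 TPM. PXDN is peroxidasin, a peroxidase of the extracellular matrix.

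Of the enzymes that supply or use tyrosine and DOPA, those reaching 10 TPM were not 4-fold apart. The entries below that level could not be called. Of 15 matched entries 3 reached 10 TPM, all of them lower in the groove, with a median log2 ratio of -0.90. Phenylalanine-4-hydroxylase, which makes tyrosine from phenylalanine, had 12.5 TPM in the groove against 20.1 TPM in the submarginal zone. The tyrosine-degrading enzymes tyrosine aminotransferase and HPD had 14.8 against 28.5 TPM and 15.2 against 29.9 TPM. The log2 ratios of these 3 enzymes lay below that of the median gene.

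Among multicopper oxidases and hemocyanins, other copper proteins, 2 entries matched, CP and HEPH, and neither is named hemocyanin. CP alone reached 10 TPM, at 18.6 against 24.3 TPM. Copper transport and chaperones also had 2 entries. The copper chaperone, a carrier of copper to its target proteins, had 32.4 against 19.5 TPM, a log2 ratio of 0.70 that was not 4-fold. The list of transglutaminases and of amine or lysyl oxidases had 18 entries, of which 5 reached 10 TPM. Toward the groove 1 of these 5 was called, against 9.45% of the 5800 genes. That gene was a transglutaminase 1, TRINITY_DN2052_c0_g2, of an enzyme class that joins glutamine to lysine side chains, with 38.8 against 3.97 TPM. Another transglutaminase 1, TRINITY_DN3128_c0_g1, had 22.6 against 27.4 TPM, and a diamine oxidase 13.1 against 18.6 TPM. The list's median log2 ratio was 0.96. Those of the 5 genes that were higher in the groove reached 10 TPM there alone. The filter thus fixed their direction, that of the called gene included.

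**Figure D5:**
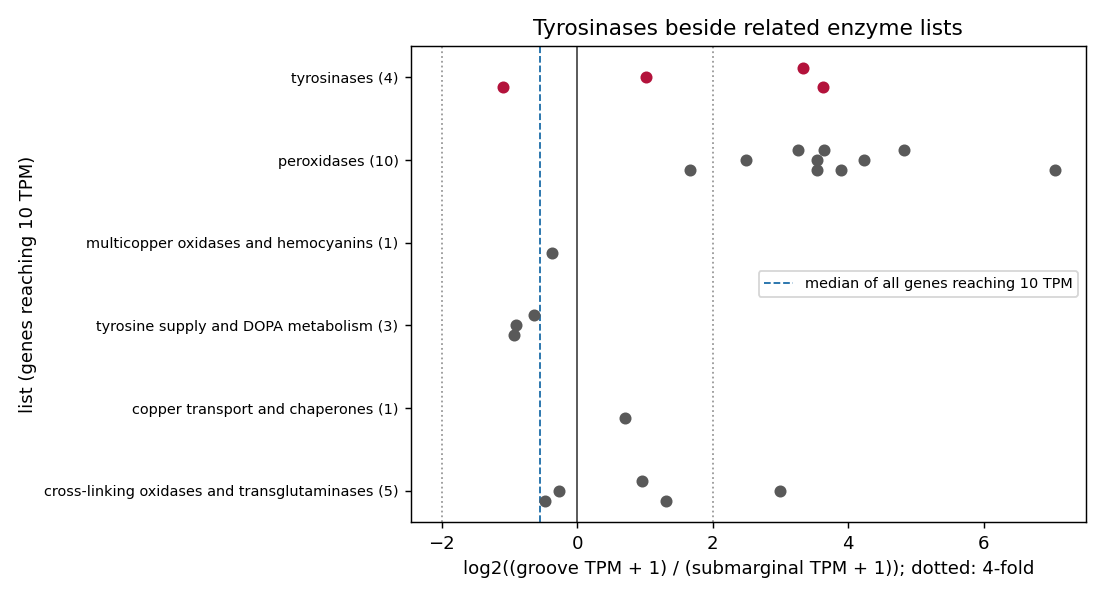
Log2 ratio of groove over submarginal TPM, each with 1 TPM added, for genes reaching 10 TPM, with tyrosinases in red above 5 related lists and the number of genes in brackets. The solid line marks equal levels, dotted lines 4-fold and the dashed line the median of all 5800 genes at -0.55. Tyrosinases span -1.09 to 3.62. The 10 peroxidases, which reached 10 TPM in the groove alone, all lie above 0. The 3 genes of the tyrosine and DOPA list lie below the dashed line.

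Markers of other cell types in the tissue also differed between the profiles. Among all 5800 genes, 9.45% were called toward the groove and 12.4% toward the submarginal zone, and the median log2 ratio was -0.55. Over list genes reaching 10 TPM the median was -1.15 for muscle, -1.62 for cilia and -4.70 for germ cells. In each of these lists some genes, and in the germ cell list most, reached 10 TPM in 1 region alone. The filter fixed the direction of those genes, which bears on the medians and the calls. The muscle list had 13 of 64 entries reaching 10 TPM, with 1 called on each side, near the shares among all genes. It summed to 5318 TPM in the groove against 16059 TPM in the submarginal zone. Paramyosin had 1392 and 4900 TPM, and a myosin heavy chain 6/7 had 1043 and 3876 TPM. Of the 13 muscle list genes reaching 10 TPM, 2 were higher in the groove. The cilia list had 22 of 100 reaching 10 TPM with 5 called, all of them toward the submarginal zone, and summed to 389 and 1116 TPM, with enkurin at 29.8 and 113 TPM and tektin-2 at 25.7 and 106 TPM. The germ cell list had 11 of 24 reaching 10 TPM with 8 called toward the submarginal zone and 1 toward the groove, a spermidine synthase that its pattern also took, and summed to 77.8 and 568 TPM, with a TSSK at 0.103 and 144 TPM and PIWIa at 19.3 and 95.6 TPM.

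Haemocytes, blood cells known to carry phenoloxidase in bivalves, were looked at with antimicrobial peptides, lysozymes and C1q proteins. Of 64 entries 24 reached 10 TPM, 3 called toward the groove and 4 toward the submarginal zone, with sums of 2280 and 3815 TPM. These calls are near the share among all 5800 genes, and the list's median log2 ratio of -0.42 lay above the -0.55 of those genes. Some haemocyte list genes, too, reached 10 TPM in only 1 region, so the filter fixed their direction. The most abundant, mytilin 8 and MgC1q29, had 545 and 889 TPM and 0.03 and 958 TPM. The list went both ways, and C-type lysozyme 3 (TRINITY_DN201_c0_g1), c-type lysozyme (TRINITY_DN743_c0_g2) and MgC1q5, named after their values were seen, had 432 against 10.7 TPM, 58.6 against 0.247 TPM and 23.2 against 0.123 TPM. None of the markers named here was at 0 in either region, while the 4 lists held 2 to 13 entries at 0 in the groove and 0 to 10 in the submarginal zone. All 4 lists were thus higher in sum in the submarginal zone, while 27.6% of the 5800 genes were higher in the groove. The part of these cell types in the tyrosinase values was not tested.

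For each member reaching 10 TPM, the nearest named genes were sought by Euclidean distance of log2(TPM + 1) over the 2 regions. Named genes are those whose product name is not of the hypothetical or uncharacterized kind. Genes without such a name were left out, although some of them lay nearer. Next to TRINITY_DN239_c0_g1 lay a protein tyrosine phosphatase type IVA at 32.8 and 67.0 TPM (distance 0.057) and golgin subfamily B member 1 at 32.8 and 71.6 TPM (distance 0.079), with 25 named genes within 0.25. Next to the tyr-3 protein lay an entry named CA at 51.8 and 5.19 TPM (distance 0.18), the single named gene within 0.25, and then FK506-binding protein 14 at 62.0 and 6.80 TPM (distance 0.44). Fewer named genes therefore lay near the tyr-3 protein than near TRINITY_DN239_c0_g1. Genes without a name were not counted.

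The nearest named gene to TRINITY_DN25920_c0_g1 was an entry called EGT2 at 15.8 and 0.427 TPM (distance 0.18). A hemicentin, a large extracellular matrix protein, followed at 16.1 and 0.147 TPM (distance 0.20). TRINITY_DN25920_c0_g1 had 3 named genes within 0.25. TRINITY_DN13640_c0_g1 had another entry named CA at 11.0 and 4.84 TPM (distance 0.021) and CSMD at 11.6 and 4.97 TPM (distance 0.068), with 24 named genes within 0.25. A likeness over 2 points describes levels alone.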

How the data were processed

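The authors deposited 1 table per mantle region with 1 TPM value per assembled gene and a best database match. TPM was read from the sums of 999875 (groove) and 999820 (submarginal zone), since the file headers give no unit. The sums do not tell TPM from values scaled to the same total without length adjustment. Per the submitters' processing notes fastp was used. Not given in the sources used here are the quantifier, the assembler, the database and any version. Identifiers have the form Trinity writes. All deposited values were multiples of 1/300 (within 0.002 on the value times 300). Of 78458 genes, 5 with empty cells were left out.

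Ratios were log2 with a pseudocount of 1 TPM. Calls needed 4-fold and 10 TPM in the higher region. The members, the 9 gene lists (patterns on product names) and the naming rule were chosen with earlier results of these data known. The rule named all members and the most abundant list genes (up to 3 or 4 reaching 10 TPM per enzyme list, 2 per cell type list). It also named the 2 nearest genes with an informative product name per member reaching 10 TPM. The spermidine synthase, the lysozymes and MgC1q5 were named after their values were seen, and the most abundant peroxidase alone of the 3 is printed. No test was possible with 1 profile per region. Alternatives were other pseudocounts, thresholds, minimums, scalings and member sets. Tables were handled with pandas 2.3.3 and numpy 2.4.6 under Python 3.11.15, and plots drawn with matplotlib 3.10.9. No genome or sequence was used.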

Additional observations from a re-analysis of the deposited data

How the results depend on the processing

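The signs of all 9 members' log2 ratios held under the 5 alternatives of pseudocount and scaling, but could not have changed. A pseudocount added to both values cannot turn a sign. The largest shift by a scaling was 0.29 log2 units, while every member was at least 2.01-fold apart. The family sum's log2 ratio of 0.58 became 0.56 with pseudocount 5, 0.87 with median-of-ratios scaling, 0.85 with upper-quartile scaling and 0.63 with the total without the 10 most abundant genes. Median-of-ratios scaling shifted the scale of the regions by 0.29 log2 units, the median of the genes reaching 10 TPM from -0.55 to -0.22 and the share of 4-fold genes that are higher in the groove from 43.3% to 52.8%. Over other member sets the sum's ratio was 0.54 with members reaching 10 TPM alone and 0.32 without the TYR genes. Leaving out 1 member, it was 2.51 without TRINITY_DN239_c0_g1 and turned to -0.21 without TRINITY_DN11209_c0_g1. It was 0.53 without TRINITY_DN13640_c0_g1, 0.40 without TRINITY_DN25920_c0_g1, 0.51 without TRINITY_DN5172_c0_g1, 0.57 without TRINITY_DN32105_c0_g1 or TRINITY_DN18775_c0_g1, 0.61 without TRINITY_DN20026_c0_g1 and 0.60 without TRINITY_DN64413_c0_g1. The family's higher sum in the groove thus rests on TRINITY_DN11209_c0_g1. The count of 2 members higher in the groove became 1 with pseudocount 5, where TRINITY_DN25920_c0_g1 had 1.91, below the 2.67 of TRINITY_DN11209_c0_g1, and 1 with a minimum of 20 TPM. It became 3 with a minimum of 1 or 5 TPM, which admits TRINITY_DN5172_c0_g1, and 3 at 2-fold, where 1 member, TRINITY_DN239_c0_g1, counted as higher in the submarginal zone. The unlisted TYR entry, an alternative chosen after seeing the data, left the counts at 2 and 0 and the sum's ratio at 0.58. No paired analysis was possible because each region has 1 profile, and no replicate could be left out. The lack of replicate values and of read depth limits every comparison.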

Other observations

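The assembly held 6 further entries that share a DN number with a tyrosinase, and none of them had a description. The DN number marks sequences built from 1 cluster of reads in identifiers of this form. They belonged to 4 of the 9 members. All were low, and 4 of the 6 were higher in the same region as their member. The neighbour of the tyr-3 protein, TRINITY_DN11209_c1_g1, had 1.47 TPM in the groove against 0.0733 TPM in the submarginal zone. The neighbour of TRINITY_DN239_c0_g1, TRINITY_DN239_c1_g1, was listed at 0 in the groove and had 1.39 TPM in the submarginal zone. Both neighbours of TRINITY_DN18775_c0_g1 were higher in the groove, at 0.81 TPM against a listed 0 and at 0.563 against 0.123 TPM.

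Around TRINITY_DN20026_c0_g1, which was higher in the submarginal zone, the order was the opposite. TRINITY_DN20026_c1_g1 had 1.38 TPM in the groove and was listed at 0 in the submarginal zone, and TRINITY_DN20026_c1_g2 had 0.16 against 0.137 TPM. Whether any of these entries is part of a tyrosinase transcript is not known from the tables.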
